A study of Homo sapiens with 16 samples.

Results

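Gene expression in RKO cells treated with the demethylating drug 5-aza-dC (decitabine) was examined on 6 of the 16 Affymetrix Human Genome U133 Plus 2.0 arrays of the series. RKO is a human colon carcinoma cell line. The members were taken by their labels. The 3 arrays with the drug were those of 5-aza-dC, of 5-aza-dC/TSA and of the triple treatment PJ-34/5-aza-dC/TSA. The 3 arrays without it were those of the control, of TSA and of PJ-34/TSA. Both groups therefore hold the same other treatments, and the arrays form 3 pairs that differ in 5-aza-dC alone and share no array. The treatment lasted 3 days. The dose of 5-aza-dC was 0.5 µM, that of TSA was 150 nM, and that of PJ-34 in RKO appears in the sources as both 2 µM and 3 µM. Each condition was hybridized once, so each treatment is 1 array of 1 cell line. The labels do not say that the RNAs came from separate cultures, and the p-values below measure the spread between these arrays.

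DNA methyltransferases copy methyl groups onto the cytosines of CG dinucleotides when DNA is replicated. 5-aza-dC, an analog of deoxycytidine, is built into the new strand and traps these enzymes, so that methylation is lost as cells divide, and genes held silent by methylated promoters can be transcribed again. TSA inhibits histone deacetylases, which remove the acetyl groups of open chromatin, and PJ-34 inhibits poly(ADP-ribose) polymerases. RKO is known for dense methylation of the CG-rich promoters called CpG islands, and it has wild-type p53.

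RKO has 8 arrays in all. The one labelled PJ-34 and the one labelled PJ-34/5-aza-dC were left out because their labels may be exchanged. This doubt came from the signals themselves. Of the 331 probe sets that rose with 5-aza-dC on the 6 arrays, the array labelled PJ-34 lay on the side of the arrays with 5-aza-dC for 288, and the array labelled PJ-34/5-aza-dC for 37. Of the 201 that fell, the numbers were 177 and 37. When all 8 RKO arrays were fitted by their labels, 0 probe sets passed limma's test at an adjusted p of 0.05. The smallest adjusted p of that fit was 0.898, and 1949 probe sets had an unadjusted p under 0.05. The 532 probe sets called on 6 arrays kept their direction in it, though 6 of its 8 arrays are the same.

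The deposited value of a probe set is a linear signal, and each array had been scaled to the same overall level. The median signal was 152 to 159 on the arrays without 5-aza-dC and 167 to 202 on those with it, and 26.1% to 27.3% against 22.4% to 25.8% of the probe sets read under 50. Pearson's r of the log2 signals between any pair of the 6 arrays was 0.946 to 0.967. The epithelial markers EPCAM (3544 to 4081) and KRT18 (14319 to 16158) were high on the 6 arrays, and KRT8 was lower, at 270 to 514. KRT19, CDH1, CDX2 and VIL1, which mark differentiated colon epithelium, read below 200 on each of the 6 arrays in their brightest probe sets. Another probe set of CDX2 reached 214 on an array without 5-aza-dC. The label colon thus rests on the name of the line and not on these markers. In RNA of whole cultures, a change in the number of expressing cells and a change in RNA per cell cannot be told apart.

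More probe sets rose than fell with 5-aza-dC, and the rises were larger. After a floor of 50 and log2, 34739 of the 54675 probe sets had a signal of 100 or more on at least 3 of the 6 arrays and were tested with limma, with TSA as a further term. At an adjusted p under 0.05, 331 probe sets rose (0.953% of those tested) and 201 fell (0.579%), and 4930 had an unadjusted p under 0.05. With a single gene symbol, these were 266 probe sets of 220 genes that rose and 188 probe sets of 163 genes that fell. The median log2 difference was 0.83 among those that rose, -0.48 among those that fell and 0.05 over all tested. A log2 difference of 1 or more was found for 135 of those that rose, and of -1 or less for 6 of those that fell.

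The probe sets that rose started from lower levels than those that fell, but from a higher median than all tested. The median signal without 5-aza-dC was 1380.5 for those that rose, 6882 for those that fell and 472 for all tested. A mean below 250 was found for 85 of those that rose and 0 of those that fell. The share of all tested below 250 was not counted. The floor on signals limits a fall from such levels, so the 0 may follow in part from the method. Each of the 532 moved in 1 direction in all 3 pairs. They were called on these same arrays, so the agreement between pairs is no independent evidence. The median of the rising probe sets was 0.90 for 5-aza-dC over control, 0.92 for 5-aza-dC/TSA over TSA and 0.76 for PJ-34/5-aza-dC/TSA over PJ-34/TSA, and that of the falling ones -0.49, -0.47 and -0.51. The lowest signal with 5-aza-dC exceeded the highest without it for 286 of the 331, and 190 of the 201 lay entirely below. Over all 34739 tested, the groups were separated in these ways for 3463 and 2467. Through the arrays with 5-aza-dC alone, 32 of the 331 had passed the signal filter, as had 368 of all tested, so these could only differ upward.

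The counts rest on several single arrays. The number past the test was 105 when the 5-aza-dC array was omitted, 136 without control, 199 without TSA and 217 without PJ-34/TSA, against 532 with all 6. Without 5-aza-dC/TSA 447 passed, and without PJ-34/5-aza-dC/TSA 416. With no filter on low signals 6 passed, with no trend in the variance 24 and with no TSA term 176.

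**Figure D1:**
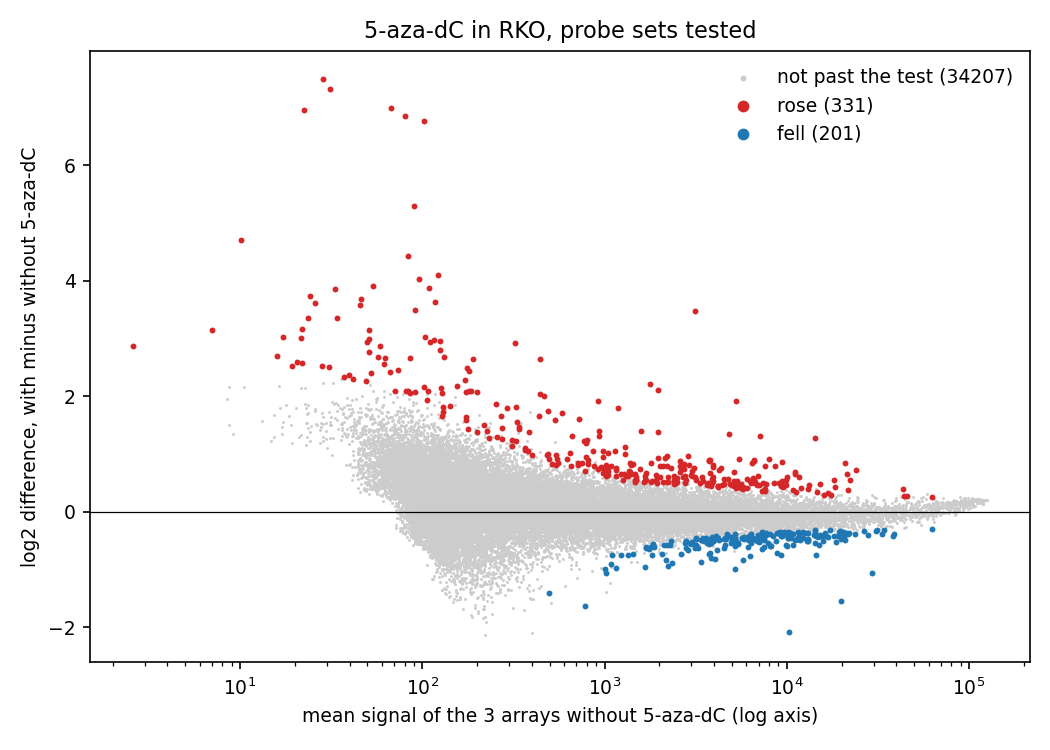
Log2 difference between the 3 RKO arrays with 5-aza-dC and the 3 without it (y axis) against the mean signal without it (x axis, log scale), 1 point for each of the 34739 probe sets tested. The 331 that rose are red and reach 7.50 from low signals, and the 201 that fell are blue and lie at higher signals.

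Among genes measured by probe sets of their own, the 15 that rose most were led by LOX, TPM2, CDKN2A and MAGEB2. In the following, signals are in the order control, TSA and PJ-34/TSA for the arrays without 5-aza-dC, and 5-aza-dC, 5-aza-dC/TSA and PJ-34/5-aza-dC/TSA for those with it. Log2 differences are given with the standard error (SE) of the limma fit and the p-value adjusted over all 34739 probe sets. LOX, which encodes lysyl oxidase, the enzyme that cross-links collagen and elastin, read 197, 7.62 and 66.2 without and 3837, 3120.1 and 3254 with the drug. The groups were far apart, and all 3 of its probe sets rose, by 2.97 to 5.29 on the log2 scale (5.29 ± 0.29 SE, adjusted p = 7.41e-07 for the highest). TPM2, a tropomyosin of actin filaments, read 130.1, 77.3 and 44.0 without and 1792, 1469.8 and 1923 with the drug. Every signal with 5-aza-dC was more than 10-fold above every one without it, and the log2 difference was 4.43 ± 0.31 SE, adjusted p = 8.19e-06.

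CDKN2A, which encodes the cell cycle inhibitors p16INK4a and p14ARF, read 47.9, 268 and 49.1 without and 1427, 1776 and 1318 with 5-aza-dC. TSA alone gave the highest of the signals without the drug, still far below the others, and both probe sets of the gene rose, the higher by 4.10 ± 0.50 SE, adjusted p = 0.00109. MAGEB2, a cancer-testis antigen, read 113, 74.7 and 101 without and 3181, 1147 and 1008 with the drug. The array with 5-aza-dC alone was the highest of the 6, and the log2 difference was 4.03 ± 0.31 SE, adjusted p = 1.73e-05.

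The sequences before the annotated starts of these 4 genes are shown because 5-aza-dC acts on CG dinucleotides. They are 250 bases each from RefSeq on GRCh38.p14, written 5′ to 3′ on the strand of the gene in lower case, with each CG in capitals. The windows are chr5:122078260-122078509 on the minus strand for LOX, chr9:35690057-35690306 on the minus strand for TPM2, chr9:21995325-21995574 on the minus strand for CDKN2A and chrX:30215313-30215562 on the plus strand for MAGEB2. CDKN2A has separate first exons for its products, and the window is that of the 1 start that the table gives.
LOX: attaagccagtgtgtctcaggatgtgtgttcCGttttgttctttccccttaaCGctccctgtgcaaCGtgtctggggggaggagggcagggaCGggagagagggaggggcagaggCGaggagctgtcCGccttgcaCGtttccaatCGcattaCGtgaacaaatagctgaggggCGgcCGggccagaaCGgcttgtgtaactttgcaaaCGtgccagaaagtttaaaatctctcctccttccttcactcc
TPM2: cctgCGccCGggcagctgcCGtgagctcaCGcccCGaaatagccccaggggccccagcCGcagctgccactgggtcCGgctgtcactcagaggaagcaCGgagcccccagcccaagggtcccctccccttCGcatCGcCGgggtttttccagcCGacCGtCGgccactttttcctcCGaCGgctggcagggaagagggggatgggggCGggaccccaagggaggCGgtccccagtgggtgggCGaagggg
CDKN2A: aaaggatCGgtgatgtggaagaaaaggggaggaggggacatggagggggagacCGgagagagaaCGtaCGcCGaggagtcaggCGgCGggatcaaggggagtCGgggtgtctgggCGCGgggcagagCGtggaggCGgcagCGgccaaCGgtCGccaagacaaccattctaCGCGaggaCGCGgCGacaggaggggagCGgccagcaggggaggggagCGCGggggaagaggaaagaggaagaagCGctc
MAGEB2: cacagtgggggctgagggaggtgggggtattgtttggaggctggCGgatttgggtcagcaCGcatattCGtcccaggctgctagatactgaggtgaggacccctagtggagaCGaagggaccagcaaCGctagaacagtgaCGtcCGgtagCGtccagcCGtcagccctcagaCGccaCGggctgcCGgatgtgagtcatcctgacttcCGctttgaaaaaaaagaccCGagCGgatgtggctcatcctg
LOX had 13 CG in this window, TPM2 had 19, CDKN2A had 24 and MAGEB2 had 15. Of the 35116 promoters in the table, 46.6%, 34.6%, 23.7% and 42.9% held as many or more. The observed over expected ratio of CG, which corrects for base composition, was 0.692 in LOX, 0.593 in TPM2, 1.08 in CDKN2A and 0.703 in MAGEB2. Methylation was not measured on these arrays.

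Of the other genes in the first 15, VIM was the most abundant. VIM, the intermediate filament protein vimentin of mesenchymal cells, read 3556, 3149 and 2653 without and 26632, 40710.5 and 38113 with 5-aza-dC. It was thus clearly expressed in untreated RKO and rose by 3.48 ± 0.14 SE, adjusted p = 1.51e-08 in 1 of its 2 probe sets. IFITM1, an interferon-induced membrane protein that restricts virus entry, read 354, 335 and 274 without and 2979.6, 2121 and 2208 with the drug (2.92 ± 0.17 SE, adjusted p = 1.06e-06).

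LY96, the partner of Toll-like receptor 4 in binding endotoxin, read 147, 109.7 and 93.6 without and 1742, 1207 and 1356 with the drug (3.63 ± 0.25 SE, adjusted p = 8.06e-06). HCLS1, an actin regulator of blood cells, read 59.6, 8.59 and 84.7 and 966, 428 and 431, a log2 difference of 3.15. LGALS3BP, a secreted galectin-binding glycoprotein, read 87.0, 105 and 141 and 1025, 700.2 and 809 (2.94 ± 0.32 SE, adjusted p = 0.000499). In each of these 3 genes the arrays with the drug lay above all others. The zinc finger gene ZNF274 rose by 3.69, CPED1 by 3.61, the cancer-testis antigens SSX3 by 3.36 and CTAG2 by 3.17, C7orf57 by 2.87 and the placental gene PLAC1 by 2.86. Of the 15 genes, 13 had a mean signal below 150 without 5-aza-dC, and all 15 had no overlap between the groups. Of all 331 probe sets that rose, 286 had no overlap. All tested probe sets passed for 12 of them, and for ZNF274, VIM and SSX3 only 1 did. ZNF274, CPED1, SSX3, CTAG2, HCLS1 and C7orf57 passed the signal filter through the arrays with 5-aza-dC alone, so that they could only differ upward. Where signals lie under the floor of 50, as in CPED1, SSX3, CTAG2 and C7orf57, the log2 difference is limited by the floor.

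**Figure D2:**
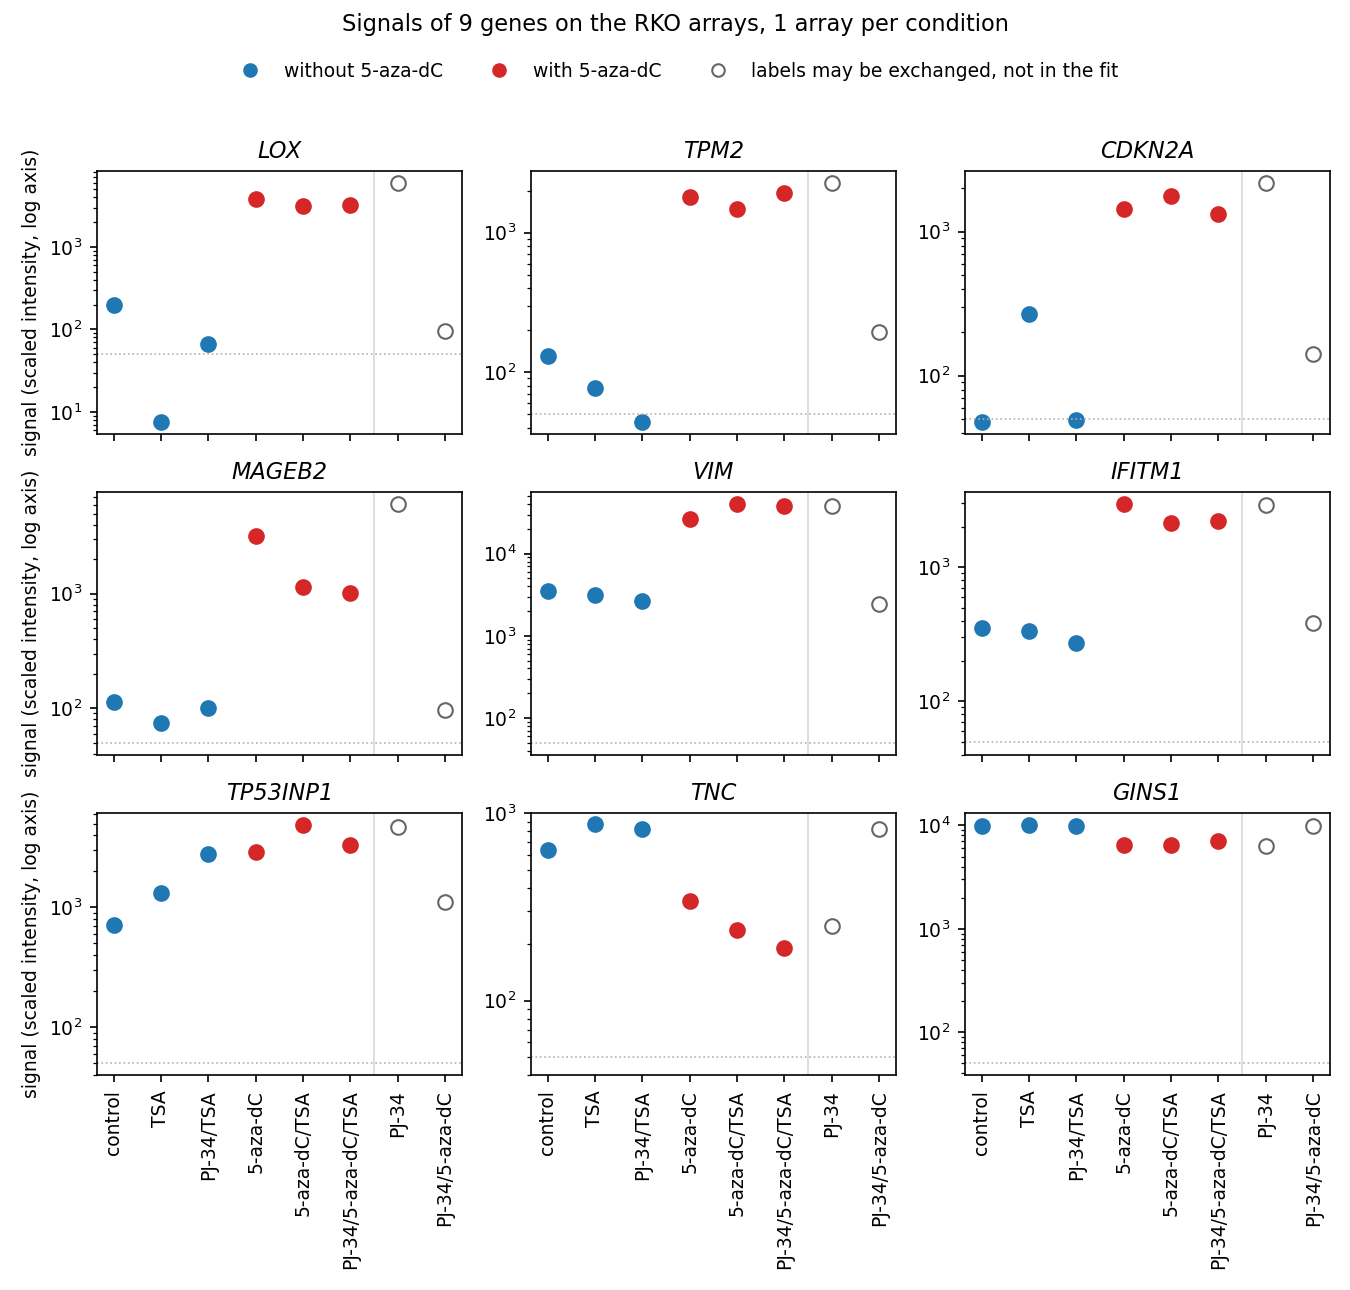
Signals of 9 genes on the 8 RKO arrays, 1 array per condition, on a log axis (scaled intensity), with a dotted line at the floor of 50. Blue points are the 3 arrays without and red points the 3 arrays with 5-aza-dC, and open points are the array labelled PJ-34 and that labelled PJ-34/5-aza-dC, which were not fitted. In 8 of the 9 genes the red points stand apart from the blue ones, and in TP53INP1 the highest blue point (2763) nears the lowest red one (2874).

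Rises larger than that of LOX were found in 6 probe sets, of which 4 are shared by several genes of the GAGE family of cancer-testis antigens and 2 carry no gene symbol. Cancer-testis antigens are made in germ cells, are silent in most other tissues and lie largely on the X chromosome. No single gene can be named for these probe sets. The 4 tested probe sets of the GAGE family rose by 6.77 to 7.50, and 2 of them had passed the signal filter through the arrays with 5-aza-dC alone. The highest of them read 7.02, 55.3 and 23.2 without and 10884, 10107.5 and 7516 with 5-aza-dC, a log2 difference of 7.50. It went from near background to a signal of 7516 or more on every array with the drug. Both probe sets of the CT45 family, which had passed the filter in the same way, rose by 3.14 and 4.71. Of the tested probe sets of other families, 3 of 4 of SPANX, 8 of 17 of SSX, 3 of 7 of CTAG and 3 of 13 of MAGE rose. The MAGE risers include MAGED1, which rose by 0.49 and is not in the list of cancer-testis antigens used below. Some risers of each of these 4 families had passed the filter through the arrays with 5-aza-dC alone and could only differ upward. These families were counted after the values had been seen.

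Of the listed cancer-testis antigen genes with a probe set of their own, 34 were on the array and 17 passed the signal filter. Of these, 8 rose and 0 fell, beside 1.35% of all 14100 genes that rose and 0.851% that fell when each gene was taken by its brightest probe set. The median log2 difference of the 17 was 1.81, against 0.04 over all genes. These shares and this median of all genes are the background for each list below. They include 7 that passed the filter through the arrays with 5-aza-dC alone, of which SSX3, CTAG2, PAGE1 and MAGEA6 rose. SSX1 read 93.3, 168 and 134 without and 664, 815 and 1009 with the drug (2.68 ± 0.29 SE, adjusted p = 0.000443). PAGE1 rose by 2.58, CTCFL, the germ cell relative of the insulator protein CTCF, by 2.56, and MAGEA6 by 2.51. IL13RA2, a decoy receptor for interleukin 13, stood apart. It was already abundant, at 7483, 12348 and 13304.5, and reached 10144, 21549.7 and 22086, with overlap between the groups (0.66 ± 0.08 SE, adjusted p = 0.00129). In each group the arrays with TSA read higher than the array without TSA.

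Of 62 listed germline and meiosis genes outside these families 27 passed the filter, and 1 rose and 0 fell, with a median of 0.18 that became -0.03 when the arrays were quantile normalized. The 1 was GTSF1, a cofactor of piRNA silencing of transposons, which read 118, 18.9 and 15.2 without and 581, 403 and 397 with the drug (2.76 ± 0.41 SE, adjusted p = 0.00407). The count holds for this list alone. The germ cell genes GCNA (2.80) and GPAT2 (2.59), which are not in it, also rose and were named after their values were seen. GPAT2 passed the filter through the arrays with 5-aza-dC alone and could only differ upward. Of the 190 genes that rose, 15 (7.89%) lie on the X chromosome, against 1 of 120 (0.833%) that fell and 3.17% of the 14082 tested genes with a chromosome. Of these 15, 7 are in the cancer-testis list.

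Of 37 genes known as methylated in colorectal cancer that passed the filter, 4 rose and 0 fell, with a median of 0.26 that became 0.09 after quantile normalization. They were LOX, CDKN2A and VIM, given above, and TFPI2. TFPI2, an inhibitor of serine proteases of the extracellular matrix, read 11, 5.66 and 40.9 without and 237, 482 and 205 with 5-aza-dC, a log2 difference of 2.52. It passed the signal filter through the arrays with 5-aza-dC alone and could only differ upward. The other 33 did not pass. Of 19 fibroblast and mesenchyme markers 4 rose and 0 fell, with a median of 0.68, and 6 had a log2 difference below 0. The summed signal of the list was 29821 to 32930 without and 63924 to 73386 with the drug. Most of that rise was VIM, with a mean of 3119 without and 35152 with the drug. Besides LOX and VIM they were the smooth muscle genes TAGLN, at 1082, 456 and 224 and 3435, 1123 and 992, and ACTA2, at 375, 585 and 1034 and 1002, 1653 and 2097. The groups overlapped for both genes. Without 5-aza-dC, TAGLN read lower and ACTA2 higher in the arrays with TSA than in control, and each array with 5-aza-dC was above its partner. Of the fibroblast genes used as a check, COL3A1 and DCN read at most 195 and 229.9 on the 6 arrays, and COL1A1 read 462 to 865 without and 408 to 703 with the drug.

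Interferon-stimulated genes are turned on by signals of virus infection, and part of them serve antigen presentation. Of 38 interferon-stimulated genes 4 rose and 0 fell, with a median of 0.32, against 1.35% that rose and a median of 0.04 over all genes. After IFITM1, the largest rise was that of HERC5, an enzyme that attaches ISG15 to proteins, at 67.8, 165 and 84.4 without and 449, 316 and 367 with the drug (1.93 ± 0.44 SE, adjusted p = 0.0498). TRIM22, an antiviral ubiquitin ligase, read 69.1, 117 and 201 and 243, 475 and 619 (1.82 ± 0.37 SE, adjusted p = 0.0314). IFI27, abundant in untreated RKO, rose from 3513, 3169.6 and 3287 to 4402, 4512 and 5148 (0.49 ± 0.10 SE, adjusted p = 0.0259). The arrays with 5-aza-dC lay above all others for the 4 genes, as for 286 of all 331 probe sets that rose.

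Of 25 antigen presentation genes 5 rose and 0 fell, with a median of 0.14, beside the 1.35% of all genes that rose. TAP1, which carries peptides into the endoplasmic reticulum, read 2274, 2513 and 3444 without and 3947, 5398 and 5168 with the drug (0.83 ± 0.12 SE, adjusted p = 0.0027). HLA-B read 13545, 18406 and 22453 and 19182, 29082 and 31903 (0.56 ± 0.08 SE, adjusted p = 0.00384). The groups overlapped in HLA-B, because the arrays with TSA were above control without 5-aza-dC too, yet each array with 5-aza-dC was above its partner. HLA-G rose by 0.85, HLA-E by 0.40 and HLA-C by 0.40, with the same overlap. Class I genes are close in sequence, so that probe sets may read more than 1 of them.

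Among the 23 lists examined, the targets of p53 held the most genes that rose. p53 is a transcription factor that is stabilized by DNA damage and turns on genes for cell cycle arrest, repair and cell death. Of 34 genes that passed the filter 12 rose and 0 fell, with a median of 0.34, and 32 of the 34 had a log2 difference above 0. Over all 14100 genes, 1.35% rose and the median was 0.04. The summed signal of the p53 targets was 125813 to 156419 without and 163640 to 206997 with 5-aza-dC. GDF15, a stress-induced cytokine, read 799, 1654 and 2848 without and 4514, 9087 and 9278 with the drug (2.22 ± 0.17 SE, adjusted p = 1.43e-05). PLK2, a polo-like kinase, read 10.7, 101 and 108 and 306, 518 and 579.8 (2.46 ± 0.38 SE, adjusted p = 0.00553). TP53INP1, a stress protein of the p53 pathway, read 709.7, 1313 and 2763 and 2874, 4911 and 3326 (1.40 ± 0.25 SE, adjusted p = 0.0153). In these 3 genes the signal without 5-aza-dC was lowest in control, higher with TSA and highest with PJ-34/TSA, and each array with 5-aza-dC was higher still.

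RRM2B, the p53-inducible subunit of ribonucleotide reductase that supplies DNA precursors for repair, read 2127, 2921 and 3538 without and 4665.5, 6156 and 5596 with the drug (0.96 ± 0.11 SE, adjusted p = 0.000509). TIGAR, MDM2, FAS, DDB2, ZMAT3, SESN1 and TP53I3 rose by 0.72 to 0.93. CDKN1A, the cell cycle inhibitor p21, read 5167, 5749 and 8671 without and 7910.1, 10752 and 10181 with the drug, with overlap (0.58 ± 0.12 SE, adjusted p = 0.0325). MDM2, the ubiquitin ligase that degrades p53, read 3395, 4232 and 5195 and 5669, 7881 and 7499, with no overlap (0.72 ± 0.09 SE, adjusted p = 0.00182).

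Histone genes made up another group. Of 20 genes listed as responding to histone deacetylase inhibitors, 7 rose and 1 fell, with a median of 0.28, and 5 of the 7 encode histones. Of all genes, 1.35% rose and 0.851% fell. H2BC12 read 9527, 12914 and 20194 without and 30262, 36300.3 and 32278 with 5-aza-dC (1.28 ± 0.15 SE, adjusted p = 0.000667). H2BC5 read 3264, 4382 and 6793 and 10151, 11569.8 and 13769.5 (1.35 ± 0.14 SE, adjusted p = 0.000431). Both had their lowest signal in control, and each array with 5-aza-dC was above each without it. H2BC21 rose by 1.01, H2AC6 by 0.81 and H1-2 by 0.54, and the others were CDKN1A and the matrix protein gene CCN2 (1.22). TUBB3, a neuronal tubulin, fell by 0.38 on the log2 scale. Over all probe sets of histone families, counted after the values were seen, 9 of 16 for H2B and 4 of 13 for H2A rose. Of the others, 1 of 6 for H1 rose, 0 of 7 for H3 rose or fell, and of 11 for H4 2 rose and 2 fell. A probe set shared by 14 H4 genes read 29087, 16219 and 13979 without and 8405, 6334 and 4939 with the drug (-1.55 ± 0.11 SE, adjusted p = 8.19e-06).

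Alpha globin, the oxygen carrier of red cells, was noticed after the values had been seen. All 6 of its tested probe sets, each shared by HBA1 and HBA2, rose by 2.07 to 3.02. A probe set at 15.8, 17.3 and 31.6 without the drug had passed the filter through the arrays with 5-aza-dC alone. In the highest of the 6 the signals were 109.9, 53.1 and 149 without and 415, 1212 and 927 with 5-aza-dC. The arrays with TSA and 5-aza-dC together were the highest. Of 15 blood-lineage markers 0 passed limma's adjusted test and 3 had an unadjusted p under 0.05, with a median of 0.65, and their summed signal was 2195 to 2514 without and 3011 to 4020 with the drug. The pan-leukocyte marker PTPRC read 57.1 to 107 without and 29.2 to 67.3 with it.

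DNA replication genes read lower with 5-aza-dC. Of 49 genes, all of which passed the filter, 13 fell and 0 rose, with a median of -0.31, and 46 of the 49 had a log2 difference below 0. Over all 14100 genes, 0.851% fell and the median was 0.04. The summed signal of the list was 378694, 409459 and 394917 without and 322422, 325635 and 316290 with 5-aza-dC, so that each array with the drug lay below each without it. GINS1, a subunit of the replicative helicase, read 9770.1, 10204 and 9881 without and 6404, 6518 and 7041 with the drug (-0.58 ± 0.08 SE, adjusted p = 0.00182). MCM7, of the helicase ring, read 14137, 15984 and 14796 and 10354, 10601.5 and 9181 (-0.58 ± 0.08 SE, adjusted p = 0.00298). In both, the signals without the drug lay close together and well above the others.

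The others fell by 0.42 to 0.57 on the log2 scale. They were the helicase loader CDC6, the helicase subunits MCM2, MCM5 and GINS2, and the replication initiation factor MCM10. The rest were the clamp loader subunits RFC2, RFC4 and RFC5, the flap nuclease FEN1, the polymerase subunit POLE2 and RRM1, a subunit of ribonucleotide reductase. RRM1 read 15523, 16655 and 17147.5 without and 11389, 12965 and 12489 with 5-aza-dC, opposite to RRM2B. Of 40 mitosis genes 4 fell and 0 rose, beside the 0.851% of all genes that fell. The median of the 40 was -0.26, and 37 had a log2 difference below 0. SPC25 of the kinetochore read 3163, 3179 and 3207 without and 2362, 2195 and 2295 with the drug (-0.48 ± 0.10 SE, adjusted p = 0.0317). The checkpoint protein MAD2L1, the kinesin KIF2C and the anaphase activator CDC20 fell by 0.38 to 0.43. Of 5 mismatch repair genes 2 fell, MSH6 from 9934, 9204 and 10182 to 8252, 7092 and 7128 and the nuclease EXO1 from 3751, 3712 and 4083 to 2859.7, 2497 and 2537. The groups did not overlap in any of the replication, mitosis and mismatch repair genes that fell, nor in 190 of all 201 probe sets that fell.

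**Figure D3:**
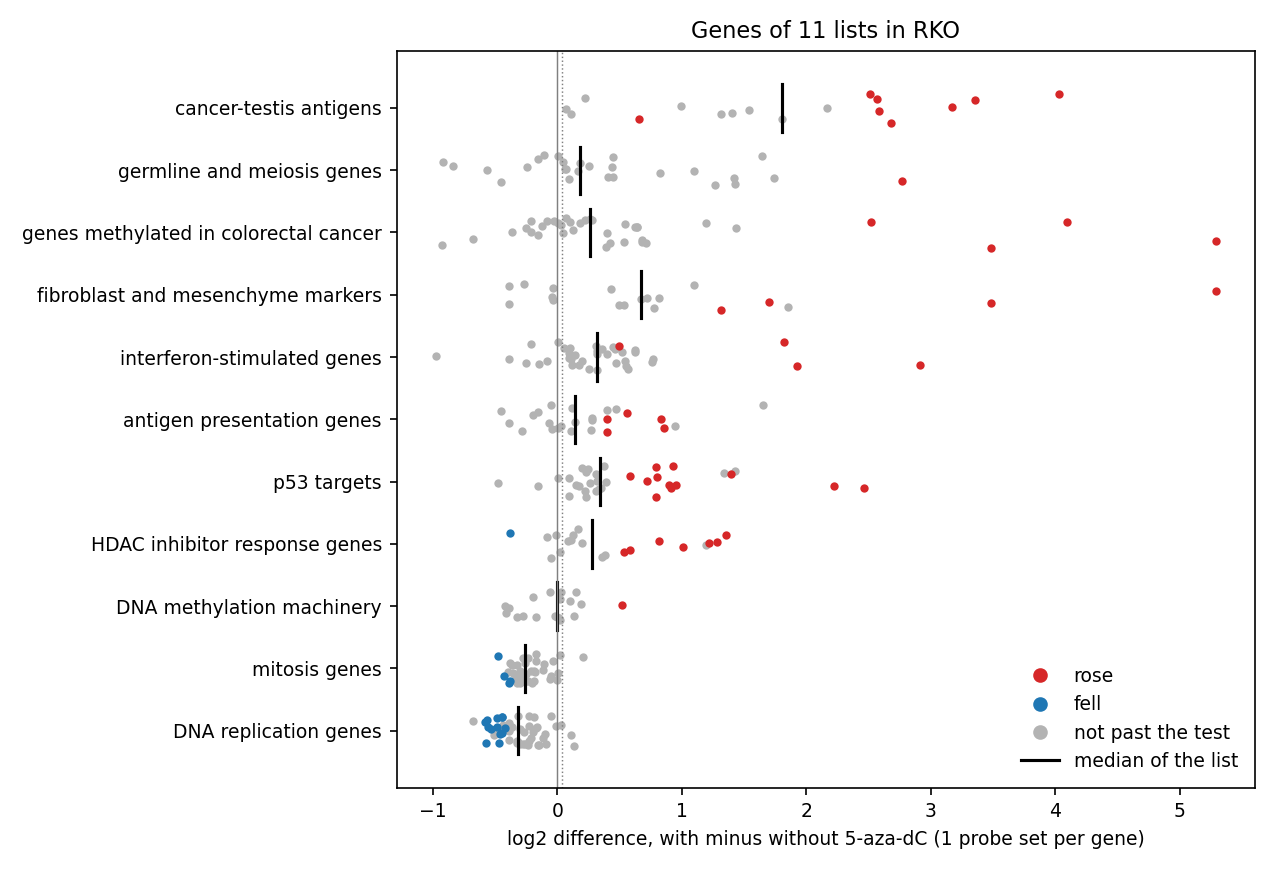
Log2 difference with 5-aza-dC in RKO for the genes of 11 lists, 1 point per gene by its brightest probe set, with red for genes that rose, blue for genes that fell, grey for the others and a black bar at the median of each list. The dotted line is the median of all genes (0.04), and the cancer-testis antigens lie farthest to the right and the DNA replication genes farthest to the left.

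The single genes with the largest falls came from no common list. MAP1LC3C, a member of the LC3 family of autophagy, read 15419, 10605 and 4988 without and 3967, 2069.5 and 1287 with 5-aza-dC (-2.09 ± 0.22 SE, adjusted p = 0.000443). It varied with the other drugs too, being highest in control and lowest in the PJ-34/TSA array of each group. TNC, the matrix glycoprotein tenascin C, read 637, 873 and 828 and 342, 237 and 191 (-1.63 ± 0.28 SE, adjusted p = 0.0109). VAV2 fell in 1 of 2 probe sets, which read 4659.7, 5068 and 5932 and 1979.8, 2988 and 3031 (-0.99 ± 0.11 SE, adjusted p = 0.000443). ITGA2, the integrin alpha 2 subunit of a collagen receptor, read 2454, 2738 and 1803 and 1603, 1137 and 1055, and both of its probe sets fell (-0.88 ± 0.16 SE, adjusted p = 0.0157). In these 4 genes every array with the drug was below every one without it.

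Falls of the remaining 11 of the first 15 were between 0.76 and 1.41 on the log2 scale, in ATF6B, ARNT, TRPS1, SEC62, C4orf46, ARSJ, MCM10, NUCKS1, GPC6, FDX1 and MSI2. MCM10 is taken here by another probe set (-0.87) than in the replication list (-0.49). Only 4 of the 15 fell in all of their tested probe sets. For ARNT, 1 of 6 probe sets fell and another had a log2 difference of 1.65, and for MSI2, 1 of 9 fell and another had 0.90. For both genes the fall is that of 1 probe set.

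The enzymes that 5-aza-dC acts on were not among the genes called. DNMT1, the maintenance methyltransferase, read 12482, 11529 and 12841 without and 10308, 10859 and 9366 with the drug, a log2 difference of -0.27 ± 0.08 SE, adjusted p = 0.134. UHRF1, which brings DNMT1 to replicating DNA, read 13916, 15889 and 13954.5 and 13100.1, 11458.5 and 10431 (-0.33 ± 0.09 SE, adjusted p = 0.105). For both, each array with 5-aza-dC was below each without it, as for 2467 of all 34739 probe sets tested, and neither passed. The de novo methyltransferases DNMT3A (0.10 ± 0.18 SE, adjusted p = 0.854) and DNMT3B (0.19 ± 0.21 SE, adjusted p = 0.744) did not pass either. Of 19 genes of the DNA methylation machinery 1 rose, ZBTB38, a protein that binds methylated DNA (0.52 ± 0.12 SE, adjusted p = 0.0446), and 0 fell. Of 12 genes of 5-aza-dC uptake and metabolism 0 passed limma's adjusted test and 2 had an unadjusted p under 0.05. DCK, the kinase that activates the drug, read 4469, 4975 and 3806 without and 3715, 3732 and 2938 with it (adjusted p = 0.201).

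Of 8 tested genes that the study names, a list chosen in part on these arrays and so no independent evidence, LOX and CDKN2A rose and the others did not pass. SOCS3, an inhibitor of cytokine signalling, read 202, 602 and 474 without and 439, 555 and 727 with the drug (adjusted p = 0.39). RANBP9, CDX2, PDGFD, UCHL1 and SFRP1 had adjusted p-values of 0.64 to 1.00, and the last 4 had mean signals of 92.2 to 131 without the drug. Of 14 secreted Wnt antagonist genes only 2 passed the signal filter and 0 the adjusted limma test, with 0 at an unadjusted p under 0.05. Of 15 colon epithelium markers 0 passed and 2 had an unadjusted p under 0.05. CLDN7, a tight junction protein, read 9.6, 14.1 and 83.2 and 507, 309 and 157 (adjusted p = 0.0604).

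In each of the remaining lists at most 1 gene rose and 1 fell. MEST rose among 17 imprinted genes, from 4000.0, 3007 and 3251 to 6010.0, 5281 and 4257. The sterol reductase TM7SF2 rose and FDPS fell among 19 cholesterol synthesis genes, and MT1M rose and MT1G fell among 8 metallothioneins. Among 31 genes of the integrated stress response the amino acid transporter SLC7A5 fell (by 0.59 on the log2 scale) and 0 rose. TUBB3 was the 1 of 9 neuronal markers that fell, and 0 of 16 ribosomal protein genes passed limma's adjusted test and 8 had an unadjusted p under 0.05, with a median of 0.14 that became -0.00100 after quantile normalization.

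Genes switched on from silence were also counted by a ratio between single arrays, with the limits of signal and fold used in the study, in each pair. For part of its counts the study also required a present or marginal flag, which rates the quality of a signal. That flag was not used here, so the numbers below are not those of the study's full rule. A probe set counted when its signal was under 50 without 5-aza-dC and at least 50 and at least 5-fold higher with it. The numbers were 3062 for 5-aza-dC over control, 2621 for 5-aza-dC/TSA over TSA and 4012 for PJ-34/5-aza-dC/TSA over PJ-34/TSA. With each pair turned around, so that 5-aza-dC would have switched probe sets off, the numbers were 1702, 2597 and 1574. Without the flag, the rule thus counted about as many in either direction in the TSA pair. In all 3 pairs it counted 76 of the 6766 probe sets that were under 50 on the 3 arrays without the drug (1.12%), against 10 of 5432 (0.184%) turned around. After quantile normalization of the arrays these were 48 and 27.

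Of these 76, 49 have a single gene symbol, 36 passed the signal filter and 16 rose in the fit. The 36 passed through the arrays with 5-aza-dC alone, by the rule itself, and could only differ upward. The 16 are therefore no independent evidence. The named genes with the highest signals were CPED1, SSX3, CTAG2, C7orf57 and LRRN4. CPED1 read 24.7, 20.2 and 32.2 without and 285, 992 and 805 with 5-aza-dC. C7orf57 read 1.69, 1.38 and 4.71 and 343, 369 and 388. LRRN4 read 14.7, 21.1 and 12.3 and 401, 252 and 340.0. Each went from background to 252 or more on all 3 arrays with the drug.

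**Figure D4:**
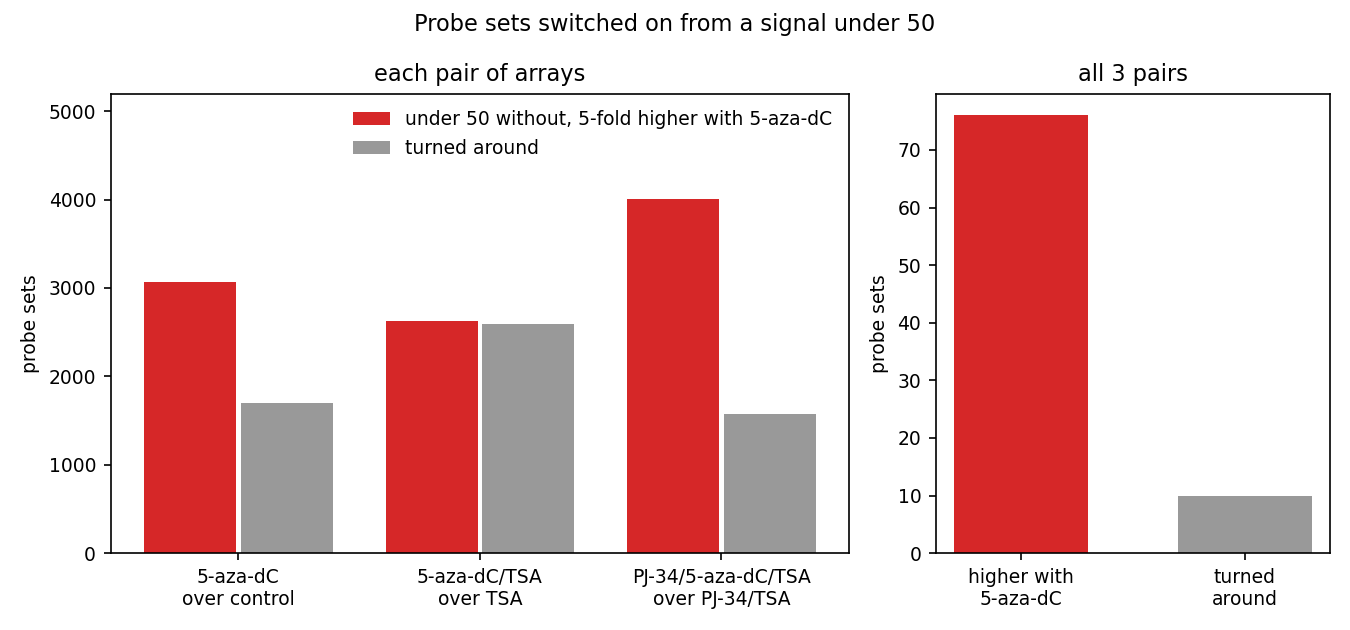
Number of probe sets with a signal under 50 that were at least 5-fold higher and at 50 or more on the partner array. Red bars are counts with 5-aza-dC as the higher array and grey bars the same pair turned around, for each of the 3 pairs (left) and for all 3 pairs together (right, 76 against 10).

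Whether the effect of 5-aza-dC depended on TSA was tested by an interaction term on the same 6 arrays. No difference was detectable, with 0 probe sets past the adjusted limma test (smallest adjusted p 0.999) and 1329 at an unadjusted p under 0.05 of 34739. With 1 array of control and 1 of 5-aza-dC outside the TSA arrays, this comparison has little precision. It does not show that the effects are alike. With no filter on low signals 1350 probe sets passed.

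The effect of 5-aza-dC in RKO was then set against that in HCT116, another human colon carcinoma line, on the 6 HCT116 arrays with the same treatments by label. The dose of PJ-34 in HCT116 was 3 µM, which may differ from that in RKO. Of 42470 probe sets tested, the effect was higher in RKO for 31 (0.073%) and lower for 21 (0.0494%). The 31 name 26 genes. For 28 of the 31 the mean HCT116 signal without 5-aza-dC was 1000 or more, and for 15 of these the RKO signal was below 250. In 29 the log2 difference within HCT116 was less than 0.6 in size, and 24 rose in RKO. The shares of all 42470 tested at such signals were not counted.

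TPM2 read 6304, 10215 and 9537 without and 6595, 10938.5 and 10762 with 5-aza-dC in HCT116, in the same order of arrays. It was thus high in HCT116 on every array, and the difference between the lines was 4.32 ± 0.28 SE, adjusted p = 1.36e-06. MAGEB2 read 13829, 22429 and 19294 and 20497, 17917 and 21310.2 in HCT116, and CDKN2A 5214, 6568 and 5595 and 5469, 5629 and 6285. For both, the signals of HCT116 with and without the drug overlapped and exceeded those of RKO with it. The line differences were 3.90 (adjusted p = 4.7e-06) and 4.09 (adjusted p = 0.0052).

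LOX differed from these, as it was low in HCT116 on every array, at 82.7, 75.6 and 78.1 without and 7.44, 8.85 and 83.5 with 5-aza-dC. Its line difference was the largest of those higher in RKO, 5.70 ± 0.60 SE, adjusted p = 0.000275. ACAN, the cartilage proteoglycan aggrecan, averaged 93.6 without and 206 with the drug in RKO and 271 and 49.0 in HCT116 (line difference 3.43, adjusted p = 0.0392).

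In the other direction, 12 of the 21 probe sets had a log2 difference of 1 or more in HCT116. TKTL1, a transketolase-like enzyme, read 41.3, 46.6 and 37.1 without and 28199, 5595 and 1479 with the drug in HCT116, against 8.49, 31.6 and 5.02 and 31.6, 20.1 and 143 in RKO. Without 5-aza-dC it read below 50 in both lines, and with it every HCT116 array exceeded every RKO array (line difference -6.44, adjusted p = 0.00623). The gap junction gene GJA1 (-3.51) and the matrix gene SPARC (-3.47) likewise reached 1909 to 3839 on the HCT116 arrays with the drug, with RKO signals of at most 161 on the 6 arrays. IFI27 (-4.23) and LXN (-3.07), an inhibitor of carboxypeptidases, were instead already between 1976 and 3513 in RKO without 5-aza-dC. VAV2 and ITGA2 fell in RKO and are among the 21, with log2 differences of 0.24 and 0.38 in HCT116. With all 16 arrays taken by their labels, 0 probe sets were higher and 13 lower in RKO. The 52 calls also rest on single arrays, with 17 without HCT116 5-aza-dC, 18 without HCT116 control, 21 without RKO 5-aza-dC, 24 without RKO TSA, 26 without RKO control and 26 without HCT116 PJ-34/TSA. Without RKO 5-aza-dC/TSA there were 32, and without RKO PJ-34/5-aza-dC/TSA 34. With no filter on low signals 7 passed, and with no trend in the variance 15.

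**Figure D5:**
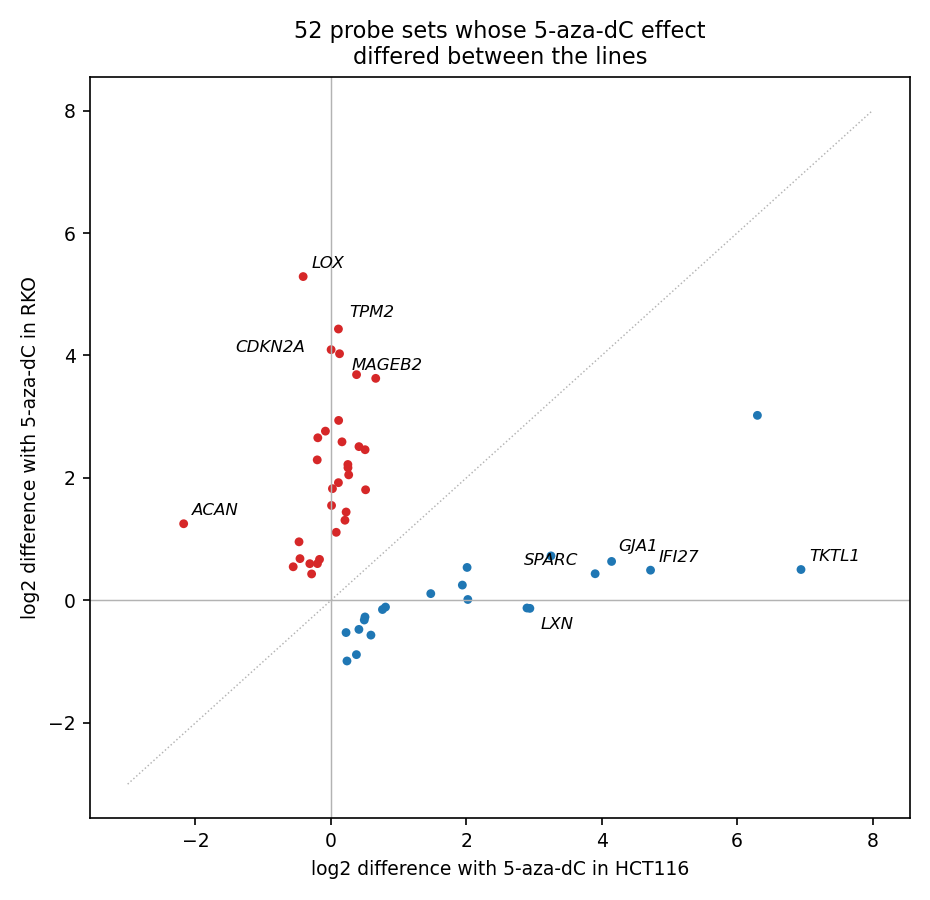
Log2 difference with 5-aza-dC in RKO (y axis) against that in HCT116 (x axis) for the 52 probe sets whose effect differed between the lines, red where it was higher in RKO (31) and blue where it was lower (21). The dotted line marks equal effects, and most red points lie near 0 on the HCT116 axis.

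Promoters were compared by their CG content, as a description. Of the 190 genes that rose 152 had a promoter in the table, of the 120 that fell 102, and of all 14100 genes 11288. In the 250 bases before and 50 after the start, the median number of CG was 20.5 for genes that rose, 28.5 for genes that fell and 25 for all. An observed over expected ratio of at least 0.6 was found in 71.1% of the promoters of rising genes (95% Wilson interval 63.4% to 77.7%), in 91.2% of those of falling genes (84.1% to 95.3%) and in 76.9% of all (76.1% to 77.7%). The rising genes thus spanned CG-rich and CG-poor promoters in shares near those of all genes, and the falling genes were mostly CG-rich. These intervals cover counting error only.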

How the data were processed

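The authors hybridized labelled RNA of RKO and HCT116 cells to Human Genome U133 Plus 2.0 arrays, 1 array for each of 8 conditions per line. The submitters' processing notes name GCOS, whose version is not given in the sources used here. The deposited values are linear scaled intensity values (signals) of 54675 probe sets, and the trimmed mean is 1000.1 on every array, so an overall shift in RNA content cannot be seen. Detection calls were not used here. Arrays were grouped by title. In RKO the PJ-34 array and the PJ-34/5-aza-dC array, whose labels may be exchanged, were left out.

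Signals were floored at 50 and log2 transformed, without further normalization between arrays. Fits used limma 3.58.1 in R 4.3.3 (lmFit, eBayes with a trend in variance), with 5-aza-dC and TSA as terms, 3 residual degrees of freedom in RKO and Benjamini-Hochberg adjustment at 0.05. All tests were two-sided. A probe set was tested in RKO when 3 or more of the 6 arrays read 100 or higher. The comparison between RKO and HCT116 used the 12 arrays of both lines, with the same filter over these 12. An exact permutation test of 3 arrays against 3 cannot go below p = 0.1 and was not used. The scripts were tested on simulated data.

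Gene symbols came from the platform annotation: 41097 probe sets had 1 symbol, 1801 had several and 11777 had none. No gene was named from a probe set with several. In gene lists each gene was taken by its probe set with the highest mean log2 signal. Named were the 15 genes with the largest differences in each direction among those past the test, moving the same way in the 3 pairs and with a mean of at least 200 in the higher group, the genes the study names, the methyltransferases and UHRF1, up to 4 members per list, and 5 genes per direction for the line difference. Further members past the test were named after their values were seen. The members of the comparison and the gene lists were chosen with earlier results of these data known. Promoter sequences were from RefSeq (GRCh38.p14). Alternatives were other floors, filters, normalization and model terms, and leaving out each array.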

Additional observations from a re-analysis of the deposited data

Results flagged for a closer look

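The effect of 5-aza-dC differed between RKO and HCT116, by the test of the difference itself, for 52 probe sets. As log2 differences of RKO minus HCT116, the effect was 5.70 for LOX, 4.32 for TPM2, 4.09 for CDKN2A, 3.90 for MAGEB2 and 3.43 for ACAN. In the other direction it was -6.44 for TKTL1, -4.23 for IFI27, -3.51 for GJA1, -3.47 for SPARC and -3.07 for LXN.

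The array labelled RKO PJ-34, which took no part in the fit and by its label received no 5-aza-dC, lay on the side of the arrays with 5-aza-dC for 288 of the 331 probe sets that rose and for 177 of the 201 that fell. An exchange of its label with that of the PJ-34/5-aza-dC array was not tested by any measurement other than these signals.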

How the results depend on the processing

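Every alternative reused arrays of the main fit. The 532 probe sets called in RKO kept their direction under every alternative in which they were tested, while their number varied. It was 6 that rose and 0 that fell with no filter on low signals (5421 at an unadjusted p under 0.05, limma), 23 and 1 with no trend in variance, 131 and 45 with no TSA term, and 0 and 0 with all 8 RKO arrays by their labels. Floors of 20 and 100, a filter of 250, quantile normalization and an added PJ-34 term gave counts within 1.5 times. Leaving out each array in turn gave 82 to 244 that rose and 23 to 219 that fell. The interaction with TSA had 1350 probe sets past the test with no filter and 0 in the other settings run, among them leaving out each of 4 arrays in turn. The fit without control or without 5-aza-dC was not run, since the term could not be estimated. For the difference between the lines, 5 were higher and 2 lower in RKO with no filter, 9 and 6 with no trend, 19 and 7 with PJ-34 terms, and 0 and 13 with all 16 arrays. Leaving out each array gave 11 to 27 and 5 to 22. The count reactivated in all 3 pairs was 46 against 0 turned around at a limit of 100, 18 against 1 at 10-fold and 48 against 27 after quantile normalization. List medians that moved by more than the SD over the 3 pairs were, after quantile normalization, 1.59 (cancer-testis antigens), 0.45 (blood), 0.092 (neuronal), -0.00701 (metallothioneins), 0.10 (imprinted) and -0.00100 (ribosomal), and by the median over all probe sets of a gene, -0.10 (uptake and metabolism), 0.49 (blood) and 0.38 (histone deacetylase inhibitor response). In a window of 250 bases, 74.7% of all promoters tested were CG-rich. The genes that changed sign were not called in any setting. DNMT3A was -0.11 with all 8 arrays. PDGFD was -0.24 after quantile normalization, -0.40 with all 8 arrays and -1.002 to 0.55 when leaving out 3 of the arrays in turn, where it passed the filter. SFRP1 was -0.31 at a floor of 20, -0.23 after quantile normalization, -0.25 with all 8 arrays and -0.37 to 0.39 when leaving out each array, DNMT3B then -0.026 to 0.38 and CDX2 -0.82 to 0.29. The cause of these changes was not tested. No paired analysis by replicate number was possible because all arrays carry the number 1. The added PJ-34 term, with that of TSA, gives each of the 3 pairs a level of its own and so is the paired fit, with 387 that rose and 285 that fell. With 1 array per condition and signals near the floor in many silent genes, differences of low genes are bounded by the floor.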
